A study of Vitis vinifera with 219 samples.

Results

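SWEET10 (VIT_17s0000g00830) and SWEET15 (VIT_01s0146g00260) were followed through berry development in grapevine, as 2 of the 29971 genes of the deposited expression table. Both were taken by their gene ID, and both passed the filter on low values that left 21425 genes for testing. The reference annotation used here, the Pinot noir assembly ASM3070453v1 of RefSeq, carries the name SWEET15 on chromosome 1, the chromosome of this ID. No ID of the table matched it, and the name SWEET10 follows published use of that ID.

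SWEET proteins are membrane uniporters that let sugars move down their concentration gradient, into or out of a cell. In Arabidopsis, SWEET10 and SWEET15 belong to clade III of the family, whose members transport sucrose, and SWEET15 there is also known as a gene of senescing leaves. A grape berry receives its sugar as sucrose through the phloem. At veraison, the onset of ripening, the berry softens and colours and begins to store glucose and fructose in its vacuoles, so that a sugar exporter and the tissue's sugar content can be set side by side. Grapevine SWEET10 has been linked to sugar storage in ripening berries.

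RNA was sequenced from berry pericarp, the skin and flesh with the seeds removed, of unthinned vines of both cultivars grown near Modesto, California. The Pinot noir vines were clone FPS 23 on Freedom rootstock, planted in 2001, and the Cabernet Sauvignon vines were clone FPS 8 on 5C rootstock, planted in 1997, so that cultivar, rootstock, vine age and vineyard block cannot be told apart. Each cultivar was 1 clone, and each library came from 60 pooled berries of 6 clusters. Pinot noir gave 99 libraries in 33 groups and Cabernet Sauvignon 120 libraries in 40 groups, a group being 3 libraries of 1 cultivar, season (2012, 2013 or 2014) and labelled day relative to veraison. The labels give each library's sugar content, which ran between 0 and 29.7 g/100 ml in Pinot noir and between 0 and 27.8 g/100 ml in Cabernet Sauvignon. Levels are RPKM, reads per kilobase of transcript scaled by the library's mapped reads, as computed by the authors, and errors are standard deviations (SD) over the 3 libraries of a group unless stated. In bulk tissue, fewer cells of a type and less RNA per cell cannot be told apart.

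The RPKM of a library summed to between 807469 and 1192350, and 20462 to 23465 genes were above 0, while the read depth behind these values is unknown. Libraries of 1 group correlated at 0.952 to 0.993 across genes. Markers of red pericarp were present, and are given at the early, sugar-rise and ripe samplings, set by sugar as defined below. GST4, which carries anthocyanins to the vacuole, had median levels of 0.197, 314 and 736 RPKM at these. Its early libraries reached up to 164 RPKM, above the lowest at the sugar rise, 91.2 RPKM, so that the early samplings were not uniform in it. LAR2, of the green-berry tannin branch, had medians of 17.8, 4.82 and 2.15 RPKM. By cultivar marker genes, 4 libraries of 2014 went against their label, all 3 Cabernet Sauvignon libraries of day -23 and 1 of 3 Pinot noir libraries of day -14. None of the 4 enters a comparison at a position set by sugar. A set of 82 genes, neither SWEET among them, was low in all 75 libraries of 2014 and in 13 Cabernet Sauvignon libraries of 2013, those of day 43 to 63 and 1 of day -13. The labels name no batch, and the libraries low in the 82 genes are called the low set here, after these genes alone. In Pinot noir the low set and the season 2014 cannot be told apart, while Cabernet Sauvignon of 2013 has libraries both in and outside the set.

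SWEET10 had its season's highest mean at 306 to 330.4 RPKM in Pinot noir and at 795 to 1302 RPKM in Cabernet Sauvignon, and was low in both cultivars at the end of the season. In Pinot noir of 2012 its group means were 129 ± 16.8, 169 ± 50.5 and 95.4 ± 12.0 RPKM at day -36, -28 and -18. They were 306 ± 44.5, 289.7 ± 39.4 and 305 ± 29.9 RPKM at day -9, 0 and 11. They then were 196 ± 9.45, 135 ± 91.2, 57.0 ± 47.6 and 18.4 ± 10.7 RPKM at day 21, 32, 42 and 53. The 3 groups of day -9 to 11 overlapped in their libraries and stood above all other groups of that season by mean. The 3 libraries of day 32 differed among themselves, at 84.6, 79.9 and 240.1 RPKM.

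The Pinot noir maximum of SWEET10 in 2013 was 323 RPKM, on day -7. SWEET10 averaged 114 ± 26.3, 188 ± 38.9 and 323 ± 28.8 RPKM at day -20, -14 and -7, the last of these being the highest of that season. Day 0, 7, 14 and 21 gave 247 ± 21.3, 245 ± 26.8, 221 ± 83.4 and 183 ± 31.3 RPKM. Later groups were at 86.8 ± 39.9 RPKM on day 28, 26.6 ± 5.26 on day 35, 21.8 ± 6.97 on day 42 and 4.58 ± 1.78 on day 50. The last of these is the lowest group mean of SWEET10 in the series and ranked 11879th of the 29971 genes.

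In Pinot noir of 2014, SWEET10 was already at 207 ± 28.5 RPKM at the first sampling, day -20. It averaged 224 ± 4.01, 330.4 ± 60.7, 252 ± 47.2 and 262 ± 41.8 RPKM at day -14, -6, 0 and 7, and 255 ± 2.94 and 209.6 ± 42.5 RPKM at day 14 and 21. Without the library of day -14 that went against its label, that day's 2 other libraries were at 221 and 223 RPKM. On day 28 the libraries were at 204, 22.9 and 248 RPKM, with labelled sugar of 17.8, 22.5 and 15.4 g/100 ml, so that the lowest library was the one with the most sugar. The later means were 117 ± 63.7, 15.5 ± 5.64, 18.5 ± 25.1 and 13.5 ± 5.13 RPKM at day 35, 42, 49 and 52. Of the 11 pairs of groups next to each other in the order of the means, 10 overlapped in their libraries.

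Cabernet Sauvignon of 2012 had the lowest early SWEET10 level, 34.5 ± 3.61 RPKM on day -37. The following means were 60.4 ± 2.94, 193 ± 52.5 and 303 ± 102 RPKM at day -28, -18 and -9, and 795 ± 28.4 RPKM on day 0, the highest of that season. Day 11, 21 and 32 were at 679 ± 58.1, 694 ± 76.0 and 602 ± 96.5 RPKM. Day 21 overlapped in its libraries with day 0, 11 and 32. Lower levels followed, 387 ± 73.7, 102 ± 54.8 and 57.8 ± 23.3 RPKM at day 42, 53 and 63. The season closed at 35.9 ± 24.2 RPKM on day 74 and 68.5 ± 3.86 RPKM on day 80, and the labelled sugar of these 2 days was 27.4 and 24.6 g/100 ml.

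The highest SWEET10 level of the series was in Cabernet Sauvignon of 2013. Its means were 69.6 ± 12.7, 118 ± 9.31 and 165 ± 19.3 RPKM at day -26, -20 and -13. Day -6 and day 0 gave 617 ± 63.98 and 477 ± 14.7 RPKM, and day 8 gave 1302 ± 104 RPKM, which ranked 55th of the 29971 genes. The libraries of day -6 were 661, 543 and 645 RPKM and those of day 0 were 464, 474 and 493 RPKM, so that day 0 lay below both its neighbours without overlap. Levels were 1167 ± 162, 807 ± 30.6 and 413 ± 136 RPKM at day 15, 22 and 29. From day 36 they were 109 ± 47.8, 112 ± 33.7, 51.6 ± 17.8, 36.4 ± 13.5 and 41.4 ± 10.9 RPKM, at day 36, 43, 49, 56 and 63. From day 43 on all libraries were in the low set, and the SWEET10 means of day 36 and 43 were 109 and 112 RPKM.

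In Cabernet Sauvignon of 2014 the first group, day -23, consists of the 3 libraries that carry the other cultivar's markers, and it had 188 ± 5.01 RPKM of SWEET10. The next means were 245 ± 51.3, 247 ± 22.2 and 453 ± 36.3 RPKM at day -14, -7 and 0. The high groups were 942 ± 146, 773 ± 74.9 and 1085 ± 295 RPKM at day 8, 14 and 21. The libraries of day 8 overlapped with both others, and those of day 14 lay below those of day 21. Then came 683 ± 102, 484 ± 52.6 and 387 ± 70.9 RPKM at day 28, 35 and 42. The last means were 129 ± 48.0, 41.9 ± 9.96 and 21.9 ± 8.10 RPKM at day 49, 56 and 63. The last mean was 2.01% of the peak of that season, against 1.42% to 8.62% over all 6 cultivar-seasons.

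**Figure D1:**
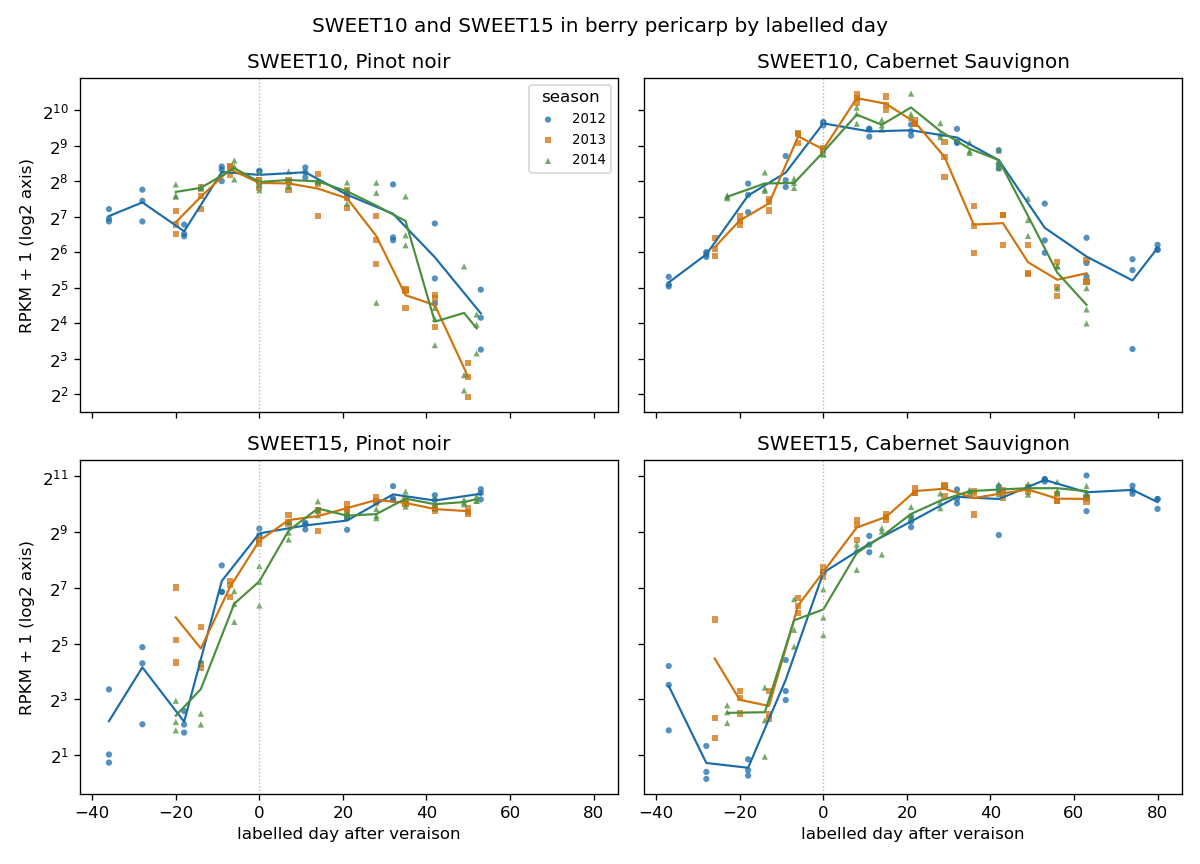
SWEET10 (top) and SWEET15 (bottom) in every library of Pinot noir (left) and Cabernet Sauvignon (right), as RPKM + 1 on a log2 axis against the labelled day after veraison. Points are libraries, lines join the means of 3 libraries, and colours and symbols mark the seasons; SWEET10 ends every season low, while SWEET15 stays between 863 and 1420 RPKM in the mean of every last sampling.

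SWEET15 was low in most samplings before veraison, with 1 library at 129 RPKM as early as day -20, was higher over several samplings around veraison, and was still at 863 RPKM or more in the mean of every last sampling. In Pinot noir of 2012 its means were 3.64 ± 4.85, 16.7 ± 12.6 and 3.58 ± 1.26 RPKM at day -36, -28 and -18. They were 151 ± 62.3 RPKM on day -9, 496 ± 54.9 RPKM on day 0 and 605 ± 51.9 RPKM on day 11. Every library of day -9 was above every earlier one. The later means were 683 ± 124, 1311 ± 259, 1124 ± 169 and 1332 ± 168 RPKM at day 21, 32, 42 and 53, and the last was the highest of that season.

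In Pinot noir of 2013 the early SWEET15 libraries were uneven, at 33.7, 129 and 19.0 RPKM on day -20. The means of day -20, -14 and -7 were 60.4 ± 59.4, 27.3 ± 17.2 and 130.0 ± 25.9 RPKM, and the first 2 of these overlapped in their libraries. Day 0, 7 and 14 gave 413 ± 24.8, 691 ± 81.3 and 763 ± 208 RPKM. The level was 931 ± 90.3, 1142 ± 84.3 and 1060.5 ± 54.1 RPKM at day 21, 28 and 35, then 908 ± 31.7 and 863 ± 57.3 RPKM at day 42 and 50. The libraries of day 42 and 50 lay below those of day 28 without overlap, and the last mean was 75.5% of the peak.

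Pinot noir of 2014 had SWEET15 means of 4.32 ± 2.12 and 9.34 ± 9.38 RPKM at day -20 and -14. The library of day -14 that went against its label was at 3.28 RPKM, against 4.59 and 20.1 RPKM in that day's 2 others. The means of day -6, 0 and 7 were 85.3 ± 31.7, 149.6 ± 68.7 and 531 ± 119 RPKM. Day 14, 21 and 28 gave 922 ± 165, 772 ± 38.0 and 802 ± 96.5 RPKM, and day 35, 42, 49 and 52 gave 1178 ± 218.9, 1026 ± 146, 1083 ± 57.6 and 1164 ± 78.3 RPKM. The libraries of day 21 and 28 lay below those of day 35 to 52 without overlap, while day 14 overlapped with all later groups but day 52.

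In Cabernet Sauvignon of 2012, SWEET15 averaged 10.2 ± 7.31 RPKM on day -37, 0.640 ± 0.754 on day -28 and 0.455 ± 0.309 on day -18. Among the 2 genes, this last group was the lowest of the series. The means of day -9, 0, 11 and 21 were 12.0 ± 7.25, 186 ± 3.28, 383 ± 78.4 and 668 ± 88.7 RPKM, each without overlap with the one before. Day 32, 42 and 53 gave 1235 ± 225, 1167 ± 604 and 1876 ± 64.9 RPKM. The highest of these, day 53, ranked 31st of the 29971 genes, the best place of either SWEET. The libraries of day 42 were 1595, 476 and 1432 RPKM, and the low one also had the lowest labelled sugar of that day, 16.5 g/100 ml. Day 63, 74 and 80 gave 1382 ± 639, 1465 ± 149 and 1082 ± 147 RPKM, and the last mean was 57.7% of the peak, the lowest such share among the 6 cultivar-seasons.

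In Cabernet Sauvignon of 2013 the SWEET15 libraries of day -26 were 57.2, 2.05 and 4.01 RPKM, 1 of them apart from the others. The means of day -20 and -13 were 6.89 ± 2.13 and 5.79 ± 2.72 RPKM, and those of day -6, 0 and 8 were 82.2 ± 15.3, 189.7 ± 25.2 and 574 ± 139 RPKM. Day 15, 22 and 29 gave 747 ± 53.1, 1425 ± 108 and 1509 ± 209 RPKM. No library of day 22 overlapped with day 15. The later means, at day 36, 43, 49, 56 and 63, were 1196 ± 349.5, 1348 ± 139.9, 1481 ± 93.5, 1178 ± 118 and 1172 ± 70.3 RPKM, and all libraries from the second of them on were in the low set.

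In Cabernet Sauvignon of 2014, SWEET15 averaged 4.71 ± 1.22 RPKM in the day -23 group that went against its label, and 4.80 ± 4.50 RPKM on day -14. Day -7, 0 and 8 gave 56.1 ± 35.0, 73.8 ± 43.6 and 304 ± 92.4 RPKM, the first 2 of which overlapped in their libraries. Day 14, 21 and 28 gave 459.8 ± 147, 806 ± 135 and 1119.5 ± 208 RPKM. The 5 groups of day 35, 42, 49, 56 and 63 were at 1419.5 ± 54.2, 1480.0 ± 191, 1528 ± 203, 1529 ± 229 and 1420.3 ± 171 RPKM and overlapped one another.

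The 73 group means of each gene were also put in order of their level. For SWEET10, 69 of the 72 pairs of neighbours in that order overlapped in their libraries, and for SWEET15 70 of 72 did. Sorting places the closest means side by side, so these counts describe places in the order and not changes between successive samplings. Within a cultivar-season, 1 to 5 pairs of SWEET10 neighbours and 2 to 6 pairs of SWEET15 neighbours did not overlap.

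To set the changes against sugar, 6 samplings were fixed in each cultivar-season from the labelled sugar alone. The sugar-rise sampling was the first with a mean of at least 5 g/100 ml. The 2 samplings before it are called the early and the preceding sampling, and the one after it the following sampling. The ripe sampling was the first with a mean of at least 20 g/100 ml, and the last sampling closed the season. Changes were tested with limma on log2(RPKM + 1), averaged over the 6 cultivar-seasons unless a season is named. A gene is said to have risen or fallen where the Benjamini-Hochberg adjusted p over all genes tested was under 0.05 and the log2 change at least 1.

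SWEET15 rose before the sugar rise and again with it. At the preceding sampling its 18 libraries ran between 6.84 and 223 RPKM with a median of 99.7, against 0.199 to 117 RPKM with a median of 12.7 at the early sampling. At the sugar-rise sampling they ran between 166 and 660 RPKM with a median of 381. The libraries of neighbouring positions overlapped when all cultivar-seasons were pooled. The log2 change of SWEET15 was 2.54 (SE 0.19, adjusted p = 3.30e-25) between the preceding and the early sampling, a step at which 1.83% of all genes tested were called higher and 2.78% lower. At the sugar rise it was 2.12 (SE 0.19, adjusted p = 1.27e-19), with 1.00% of all genes called higher and 3.13% lower.

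SWEET10 was already high before the sugar rise and was not called at it. At the preceding sampling its 18 libraries ran between 214 and 661 RPKM with a median of 339, against 86.4 to 384 RPKM with a median of 193 at the early sampling. At the sugar-rise sampling they ran between 222 and 1082 RPKM with a median of 389. The SWEET10 log2 change was 0.91 (SE 0.17, adjusted p = 1.44e-06) between the preceding and the early sampling, which passed the p threshold but not the size. It was 0.29 (SE 0.17, adjusted p = 0.137) at the sugar rise, with values between 0.089 without 2012 and 0.62 without 2013, none called. Over all genes tested, 215 were called higher and 670 lower at the sugar rise, against 309 and 384 after quantile normalization, where the SWEET10 change was 0.26.

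SWEET15 rose at the sugar rise in each cultivar and season. In Pinot noir the SWEET15 libraries at the sugar rise were 475, 455 and 558 RPKM in 2012, 385, 433 and 422 in 2013 and 426, 660.5 and 506 in 2014. Those of the preceding sampling were 223, 115 and 115 RPKM in 2012, 152, 101 and 137 in 2013 and 81.6, 218.9 and 148 in 2014, and the 2 samplings did not overlap in any season. The log2 changes were 1.78 (adjusted p = 0.00315), 1.68 (adjusted p = 0.00244) and 1.91 (adjusted p = 0.00193). For Cabernet Sauvignon the SWEET15 libraries at the sugar rise were 187, 182 and 189 RPKM in 2012, 187, 216 and 166 in 2013 and 336, 376 and 199.7 in 2014. The preceding sampling had 20.3, 6.84 and 8.83 RPKM in 2012, 98.1, 67.5 and 80.9 in 2013 and 38.6, 60.1 and 123 in 2014, again without overlap. These changes were 3.99 (adjusted p = 7.73e-13), 1.21 (adjusted p = 0.0397) and 2.14 (adjusted p = 7.81e-05), so that SWEET15 rose in 6 of 6 cultivar-seasons, where the share of all genes called higher was 0.859%, 2.02% and 0.131% in Pinot noir and 3.28%, 1.02% and 1.44% in Cabernet Sauvignon. A log2 change within 1 cultivar-season had an SE of 0.47 for SWEET15 and 0.42 for SWEET10.

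SWEET10 rose at the sugar rise in 2 of the 6, both of Cabernet Sauvignon. Its libraries of 2012 were 805, 763 and 816 RPKM at the sugar rise and 419, 228 and 261 RPKM before it (log2 change 1.44, adjusted p = 0.00242), and those of 2014 were 956, 1082 and 789.7 RPKM at the sugar rise and 430.2, 435 and 495 RPKM before it (1.04, adjusted p = 0.0335). In both seasons the 2 samplings did not overlap. In Cabernet Sauvignon of 2013 the change was -0.36 (adjusted p = 0.570), and in Pinot noir it was -0.08, -0.39 and 0.06 in 2012, 2013 and 2014 (adjusted p = 0.951, 0.512 and 0.992). The test of the cultivar difference at this step, Pinot noir minus Cabernet Sauvignon, gave -0.84 (SE 0.34, adjusted p = 0.0750) for SWEET10 and -0.66 (SE 0.39, adjusted p = 0.257) for SWEET15. At that difference 1.34% of all genes were called, 191 higher and 97 lower, against 141 and 121 after quantile normalization. Without 2013 these differences were -1.25 and -1.22 and both were called, and without 2012 the SWEET15 difference was 0.12.

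In every cultivar-season SWEET15 rose at a step that ended 6 to 9 days before labelled veraison. Of the 67 steps between successive samplings, SWEET15 rose at 14 and fell at 2, and SWEET10 rose at 7 and fell at 8, where 1.19% of all tests over genes and steps were called higher and 1.80% lower. In Pinot noir the step ended on day -9 in 2012 (log2 change 5.01), day -7 in 2013 (2.35) and day -6 in 2014 (3.37). In Cabernet Sauvignon it ended on day -9 (3.04), day -6 (3.67) and day -7 (3.46). The labelled sugar at the end of these steps was 3.58, 2.97 and 1.34 g/100 ml in Pinot noir and 1.55, 2.00 and 0.563 g/100 ml in Cabernet Sauvignon, under 5 g/100 ml in all 6. The Pinot noir step of 2014 includes the library that went against its label.

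The other calls of SWEET15 were the 6 at the sugar rise, the one after it in Cabernet Sauvignon of 2013, and 3 in green berries of 2012. In Pinot noir it rose between day -36 and -28 (2.05) and fell between day -28 and -18 (-1.60), and in Cabernet Sauvignon it fell between day -37 and -28 (-2.58), all at means of at most 16.7 RPKM. No step was called for SWEET15 after day 8. The SWEET10 rises lay between day -28 and 8, with the exception of the last step of 2012 in Cabernet Sauvignon (day 74 to 80, 1.26, adjusted p = 0.0379), at which the labelled sugar was lower on day 80. Its 8 falls all lay after day 28. They ended on day 42 and 53 in Pinot noir of 2012, day 50 of 2013 and day 42 of 2014, and on day 53, day 36, and day 49 and 56 in Cabernet Sauvignon of 2012, 2013 and 2014.

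Relative to sugar, the rise of SWEET15 came a sampling earlier in 2014 than in the other seasons. This rise ended on day -6 in Pinot noir and day -7 in Cabernet Sauvignon, against -9 to -6 in 2012 and 2013. Mean sugar on day 0 was 1.11 and 2.26 g/100 ml in 2014, against 6.83 to 9.23 g/100 ml in 2012 and 2013. The positions set by sugar thus fell on later labelled days in 2014. In Pinot noir of 2014 mean sugar was 1.34 g/100 ml at the early and 1.11 g/100 ml at the preceding sampling. All libraries of 2014 were in the low set. Between the preceding and the early sampling the SWEET15 log2 change of 2014 was 0.76 in Pinot noir and 0.40 in Cabernet Sauvignon, neither called. The changes of 2012 and 2013 were 5.01 and 2.35 in Pinot noir and 3.04 and 3.67 in Cabernet Sauvignon, all called, where the share of all genes called higher over 2012, 2013 and 2014 was 4.28%, 1.66% and 1.96% in Pinot noir and 2.28%, 2.95% and 2.37% in Cabernet Sauvignon. At the early sampling the 6 libraries of 2014 ran between 28.6 and 117 RPKM of SWEET15, against 0.199 to 47.2 RPKM in the 12 libraries of 2012 and 2013. With positions set by the labelled day, and so with day 0 in place of the sugar rise, the change before veraison was 3.48. A season difference of the sugar rise itself, 2014 minus the mean of 2012 and 2013, was not called for SWEET10 (0.40, SE 0.36, adjusted p = 0.641) or SWEET15 (-0.14, SE 0.41, adjusted p = 0.915), where 0.551% of all genes were called. The SWEET10 value was -0.13 without 2013, the SWEET15 value was 0.58 without 2012 and 0.32 without replicate 3, and for SWEET15 the difference was -1.58 and called with positions set by day.

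Between the sugar rise and the following sampling, SWEET15 changed on average by less than the size threshold. Its mean over the 18 libraries was 353 RPKM at the sugar rise and 1367 RPKM at the ripe sampling, a change that was not tested. At the following sampling its libraries ran between 293 and 1102 RPKM with a median of 614. The log2 change was 0.83 (SE 0.19, adjusted p = 0.000189), and it was called in Cabernet Sauvignon of 2013 alone (1.57, adjusted p = 0.0101), where 0.985% of all genes were called higher. SWEET10 changed by 0.16 (SE 0.17, adjusted p = 0.505) and was likewise called only in Cabernet Sauvignon of 2013 (1.44, adjusted p = 0.00738). Without that cultivar-season its mean change was -0.094. At this step 0.504% of all genes were called higher and 0.271% lower, as 108 and 58 genes, against 123 and 39 after quantile normalization.

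**Figure D2:**
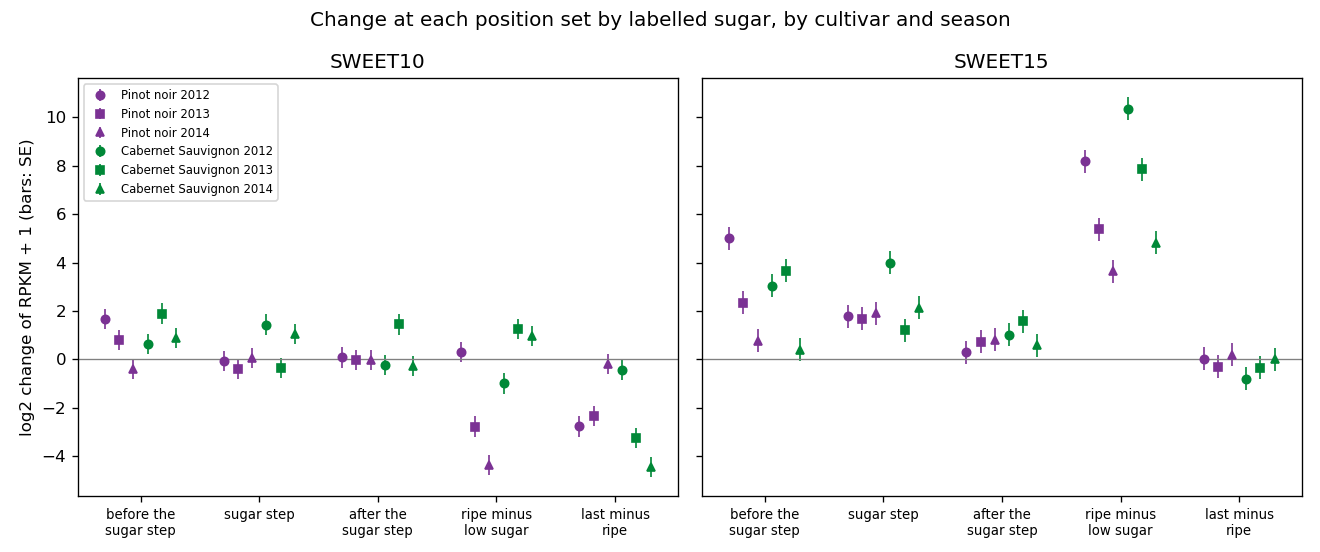
Log2 change of RPKM + 1 with its SE for SWEET10 (left) and SWEET15 (right) in each cultivar-season: preceding minus early, sugar rise minus preceding, following minus sugar rise, ripe minus early and last minus ripe sampling. SWEET15 is above 0 in all 6 cultivar-seasons at the sugar rise and over ripening, while SWEET10 over ripening lies on both sides of 0, between -4.38 and 1.27.

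From the early to the ripe sampling SWEET15 rose in every cultivar-season. Its libraries ran between 939 and 1920 RPKM with a median of 1314 when ripe, against 0.199 to 117 RPKM when early, without overlap. The log2 change was 6.70 (SE 0.19, adjusted p = 1.22e-71), where 7.29% of all genes were called higher and 21.4% lower. These were 1561 higher and 4592 lower genes, against 2768 and 3029 after quantile normalization. The median change of all genes was -0.25 as deposited and 0.09 after quantile normalization, and that of SWEET15 was 6.86 after it. By season it was 8.18, 5.39 and 3.63 in Pinot noir and 10.35, 7.86 and 4.81 in Cabernet Sauvignon, for 2012, 2013 and 2014, called in 6 of 6. The share of all genes called higher was 8.71%, 8.35% and 8.55% in Pinot noir and 10.2%, 8.73% and 7.13% in Cabernet Sauvignon.

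The same comparison gave SWEET10 changes of both signs. Its libraries ran between 9.40 and 549 RPKM with a median of 82.3 when ripe, against 86.4 to 384 RPKM when early, with overlap. The mean log2 change was -0.94 (SE 0.17, adjusted p = 3.13e-07), under the size threshold. It was -1.38 and called without Cabernet Sauvignon of 2013, and -0.55 without 2014 and -0.52 with TMM scale factors, neither called. SWEET10 fell in Pinot noir of 2013 (-2.78) and 2014 (-4.38), where 21.7% and 20.6% of all genes were called lower, and rose in Cabernet Sauvignon of 2013 (1.27). The other cultivar-seasons gave 0.31 in Pinot noir of 2012, -0.999 in Cabernet Sauvignon of 2012 and 0.97 in Cabernet Sauvignon of 2014, none of them called.

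SWEET10 fell late, and SWEET15 was not called to change. At the last sampling SWEET10 ran between 2.78 and 72.95 RPKM with a median of 18.9, and its log2 change from the ripe sampling was -2.25 (SE 0.17, adjusted p = 6.10e-25), where 2.38% of all genes were called lower. With the 6 cultivar-seasons as replicates in place of libraries the adjusted p was 0.0515. It fell in Pinot noir of 2012 (-2.77) and 2013 (-2.34) and in Cabernet Sauvignon of 2013 (-3.26) and 2014 (-4.46), while the share of all genes called lower over 2012, 2013 and 2014 was 2.53%, 2.93% and 0.140% in Pinot noir and 2.90%, 11.1% and 3.44% in Cabernet Sauvignon. The change was -0.19 in Pinot noir of 2014 and -0.45 in Cabernet Sauvignon of 2012, where the ripe sampling was already low at 15.5 and 102 RPKM. The ripe sampling of Cabernet Sauvignon in 2013 lay outside the low set and the last one in it, while both samplings of 2014 lay in it. SWEET15 ran between 813 and 1616 RPKM with a median of 1167 at the last sampling, and its change was -0.21 (SE 0.19, adjusted p = 0.366).

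The decline of SWEET10 came late in terms of sugar. In Pinot noir the group mean stayed under 50% of its season's peak from day 32, 28 and 28 on in 2012, 2013 and 2014, at 20.6, 18.9 and 18.5 g/100 ml. In Cabernet Sauvignon this began on day 42, 29 and 35, at 19.5, 21.1 and 21.2 g/100 ml. Over groups of 24 g/100 ml and more, the means ran between 4.58 and 57.0 RPKM in Pinot noir and between 21.9 and 68.5 RPKM in Cabernet Sauvignon.

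**Figure D3:**
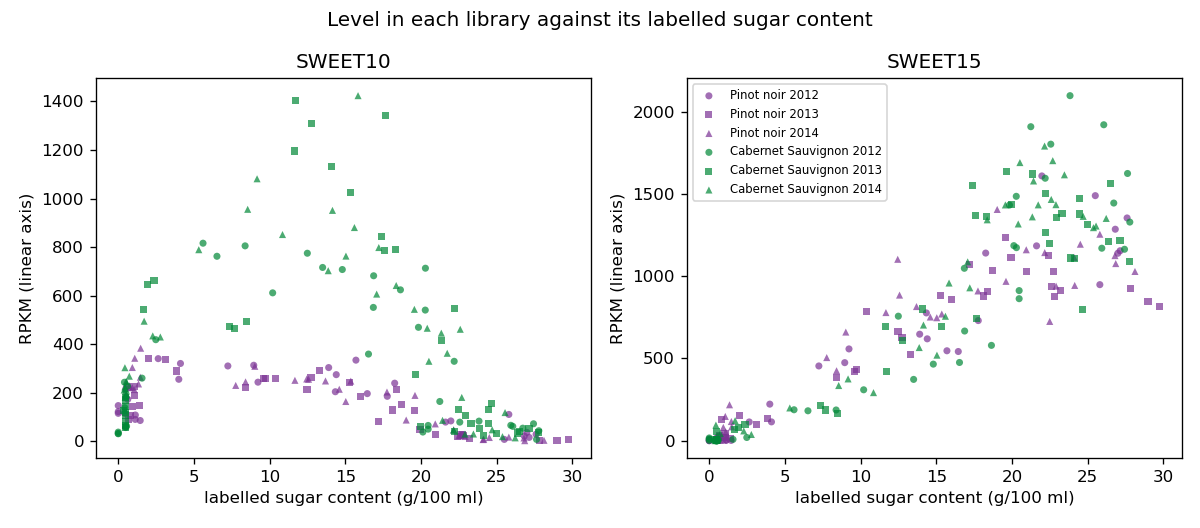
RPKM of SWEET10 (left) and SWEET15 (right) in every library against its labelled sugar content in g/100 ml, on linear axes; colours mark the cultivar and symbols the season. Between 5 and 20 g/100 ml every SWEET10 group mean of Cabernet Sauvignon, 387 to 1302 RPKM, lies above every one of Pinot noir, 86.8 to 305 RPKM.

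The order of both genes was tested by where each first reached 50% of its season's highest group mean, read by linear interpolation between samplings. SWEET10 crossed at 0.316, 1.03 and 0.523 g/100 ml in Pinot noir of 2012, 2013 and 2014, the last being an upper bound since its first sampling was already above the level. The value of 2012 was read between group means of 0 and 0.52 g/100 ml, and all 3 libraries of the first were labelled exactly 0. In Cabernet Sauvignon SWEET10 crossed at 2.57, 8.72 and 3.25 g/100 ml. SWEET15 crossed at 15.9, 10.7 and 8.97 g/100 ml in Pinot noir and at 17.5, 15.7 and 15.0 g/100 ml in Cabernet Sauvignon.

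SWEET10 therefore crossed at less sugar than SWEET15 in 6 of 6 cultivar-seasons, by 11.2 g/100 ml on average (SWEET10 minus SWEET15 -11.2, SD 3.48; exact two-sided sign-flip permutation test, p = 0.03125, the smallest that 6 pairs allow). In days the difference was -27.3 (SD 13.2, n = 6), with the same exact permutation p of 0.03125. In Pinot noir of 2012, SWEET10 crossed at day -31.1 and then dipped to 95.4 RPKM on day -18. The crossing depends on the starting level: the first SWEET10 means of Pinot noir were 129, 114 and 207 RPKM, against crossing levels of 153, 162 and 165 RPKM. The order of crossing is not that of the called rises. SWEET10 rose at no step in Pinot noir of 2013 and 2014. Both genes rose between day -18 and -9 in Pinot noir of 2012 and between day -13 and -6 in Cabernet Sauvignon of 2013. When the halfway level was set on the log2 scale, the difference was -2.81 g/100 ml and -16.7 days, still lower in 6 of 6. That level lay midway between the season's lowest and highest group means. The lowest SWEET10 means came late in Pinot noir (18.4, 4.58 and 13.5 RPKM) and in Cabernet Sauvignon of 2014 (21.9 RPKM). The first SWEET10 means there, 129, 114, 207 and 188 RPKM, were already above that level. SWEET10 was thus placed at its first sampling in these cultivar-seasons, where the order was not tested.

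The handover from SWEET10 to SWEET15 as the more abundant transcript per kilobase came early in Pinot noir and late in Cabernet Sauvignon. SWEET15 first exceeded SWEET10 by mean RPKM on day 0, 0 and 7 in Pinot noir of 2012, 2013 and 2014. The sugar was then 8.47, 9.23 and 8.40 g/100 ml, and the SWEET15 means were 496, 413 and 531 RPKM, against SWEET10 means of 289.7, 247 and 262 RPKM. In Cabernet Sauvignon it did so on day 32, 22 and 28, at 19.1, 17.8 and 17.5 g/100 ml. The SWEET15 means were 1235, 1425 and 1119.5 RPKM there, against SWEET10 means of 602, 807 and 683 RPKM. The ranges of sugar of the 2 cultivars did not overlap.

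Pinot noir had less SWEET10 and more SWEET15 than Cabernet Sauvignon at the sugar rise. SWEET10 ran between 222 and 314 RPKM in the 9 Pinot noir libraries, with a mean of 266 ± 35.9, against 464 to 1082 RPKM in the 9 Cabernet Sauvignon libraries, with a mean of 738 ± 219.1. SWEET15 ran between 385 and 660 RPKM in Pinot noir, with a mean of 480 ± 84.8, against 166 to 376 RPKM in Cabernet Sauvignon, with a mean of 227 ± 75.2. Neither gene's libraries overlapped between the cultivars. The log2 difference, Pinot noir minus Cabernet Sauvignon, was -1.42 for SWEET10 (SE 0.24, adjusted p = 1.90e-07) and 1.12 for SWEET15 (SE 0.27, adjusted p = 0.000247), where 3.51% of all genes were called higher and 3.14% lower in Pinot noir. The labelled sugar at this sampling was 8.40 to 9.23 g/100 ml in Pinot noir and 6.83 to 7.84 g/100 ml in Cabernet Sauvignon, and its part in these differences was not tested. With the 3 seasons as replicates both were still called (adjusted p = 0.0113 for SWEET10 and 0.0125 for SWEET15), while SWEET15 dropped to 0.98 without 2012 and to 0.97 without replicate 3, under the size threshold.

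At the following sampling the mean sugar was 12.9 g/100 ml in Pinot noir and 12.7 g/100 ml in Cabernet Sauvignon. SWEET10 then ran between 214 and 335 RPKM in Pinot noir, against 612 to 1403 RPKM in Cabernet Sauvignon, again without overlap. The log2 difference was called lower in Pinot noir in 3 of 3 seasons, at -1.15, -2.41 and -1.59 for 2012, 2013 and 2014, where 3.62%, 3.78% and 3.89% of all genes were called lower. SWEET15 ran between 547 and 1102 RPKM in Pinot noir, against 293 to 693 RPKM in Cabernet Sauvignon. Its differences of 0.67, 0.29 and 1.04 were not called.

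Before the sugar rise the cultivars differed in SWEET15 and were not called to differ in SWEET10. At the early sampling SWEET10 averaged 205 ± 109 RPKM in Pinot noir and 202 ± 46.8 RPKM in Cabernet Sauvignon, with a log2 difference of -0.13 (SE 0.24, adjusted p = 0.681). SWEET15 ran between 2.50 and 117 RPKM with a median of 18.4 in Pinot noir, against 0.199 to 95.6 RPKM with a median of 4.47 in Cabernet Sauvignon. The SWEET15 difference was 1.44 (SE 0.27, adjusted p = 2.51e-06), where 3.18% of all genes were called higher in Pinot noir. It was called in 2012 (1.64) and 2013 (1.97) and not in 2014 (0.70), where 5.94%, 3.67% and 3.53% of all genes were called higher. The labelled sugar at this sampling was also higher in Pinot noir, 1.25 against 0.498 g/100 ml on average. With a pseudocount of 5 the difference was 0.93 and not called, and with the 3 seasons as replicates its adjusted p was 0.730.

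At the ripe sampling SWEET10 ran between 9.40 and 240 RPKM with a median of 29.4 in Pinot noir, against 62.3 to 549 RPKM with a median of 414 in Cabernet Sauvignon. The log2 difference was -2.83 (SE 0.24, adjusted p = 1.61e-21), where 4.67% of all genes were called lower in Pinot noir. With the 3 seasons as replicates the adjusted p was 0.0823, and the difference was -4.40 without 2012 and -1.77 without 2014. It was 0.33 in 2012, where the sugar was 20.6 g/100 ml in Pinot noir and 23.3 g/100 ml in Cabernet Sauvignon. It was -3.87 in 2013 (22.0 against 21.1 g/100 ml) and -4.94 in 2014 (23.9 against 21.2 g/100 ml). Over 2012, 2013 and 2014, 8.23%, 6.34% and 6.32% of all genes were called lower. The cultivar with more sugar had the lower SWEET10 mean in each season, and the part of sugar in this difference was not tested. The Pinot noir sampling just under the threshold in 2014 had 19.9 g/100 ml and 117 RPKM. SWEET15 averaged 1132 ± 202 RPKM in Pinot noir and 1601 ± 238 RPKM in Cabernet Sauvignon when ripe, a log2 difference of -0.50 (SE 0.27, adjusted p = 0.0994).

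The change over ripening differed between the cultivars for both genes. Pinot noir minus Cabernet Sauvignon, the difference of the change from early to ripe was -2.69 for SWEET10 (SE 0.34, adjusted p = 1.02e-11) and -1.94 for SWEET15 (SE 0.39, adjusted p = 6.71e-06), where 4.30% of all genes were called lower in Pinot noir. Both rest on the spread between libraries: with cultivar-seasons as replicates the adjusted p was 0.253 and 0.549. The SWEET10 difference was -4.69 without 2012 and -1.37 without 2014, both called. At the early sampling the SWEET15 libraries of Cabernet Sauvignon reached down to 0.199 RPKM, where a pseudocount of 1 limits the log2 level.

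The ID next to that of SWEET10 in the annotation, VIT_17s0000g00820, also had its highest levels around veraison. Its highest group means in 2012, 2013 and 2014 were 14.9 ± 5.03, 23.6 ± 4.53 and 14.0 ± 8.49 RPKM in Pinot noir, at day -9, -7 and -6. In Cabernet Sauvignon they were 124 ± 47.4, 114 ± 52.5 and 107 ± 25.9 RPKM, at day 0, -6 and 0. These are the days of the SWEET10 maximum in all 3 Pinot noir seasons and in Cabernet Sauvignon of 2012. Over the 73 group means of log2(RPKM + 1) the Pearson r with SWEET10 was 0.791, as a description of groups that share libraries.

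This neighbour fell at the step after the sugar rise, averaged over the 6 cultivar-seasons. By season its mean was already lower at the sugar rise than before it, except in Cabernet Sauvignon of 2012. In Pinot noir it was 9.22, 6.10 and 5.45 RPKM at the sugar rise, against 14.9, 23.6 and 11.8 RPKM before it. In Cabernet Sauvignon it was 124, 78.4 and 84.6 RPKM, against 40.0, 114 and 107 RPKM. Averaged over the 6 cultivar-seasons it had 52.0 RPKM at the preceding sampling, against 12.5 RPKM at the early one, and rose (log2 change 1.98, adjusted p = 9.76e-20). It fell to 27.0 RPKM at the following sampling, against 51.3 RPKM at the sugar rise (-1.13, adjusted p = 6.23e-08), and to 1.12 RPKM at the ripe sampling, against 12.5 RPKM at the early one (-2.36, adjusted p = 3.37e-26). SWEET10 averaged 593 RPKM at the following sampling, against 502 RPKM at the sugar rise. The neighbour's libraries were all at 0 in 6 groups, each of them late Pinot noir. Whether reads could be shared between these 2 IDs was not tested. Among all 19 IDs within 5 places of either SWEET, 14 were tested, and 4 rose and 1 fell from the early to the ripe sampling, a change at which 7.29% of all genes were called higher and 21.4% lower, with a median log2 change of 0.47 against -0.25 over all genes tested.

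**Figure D4:**
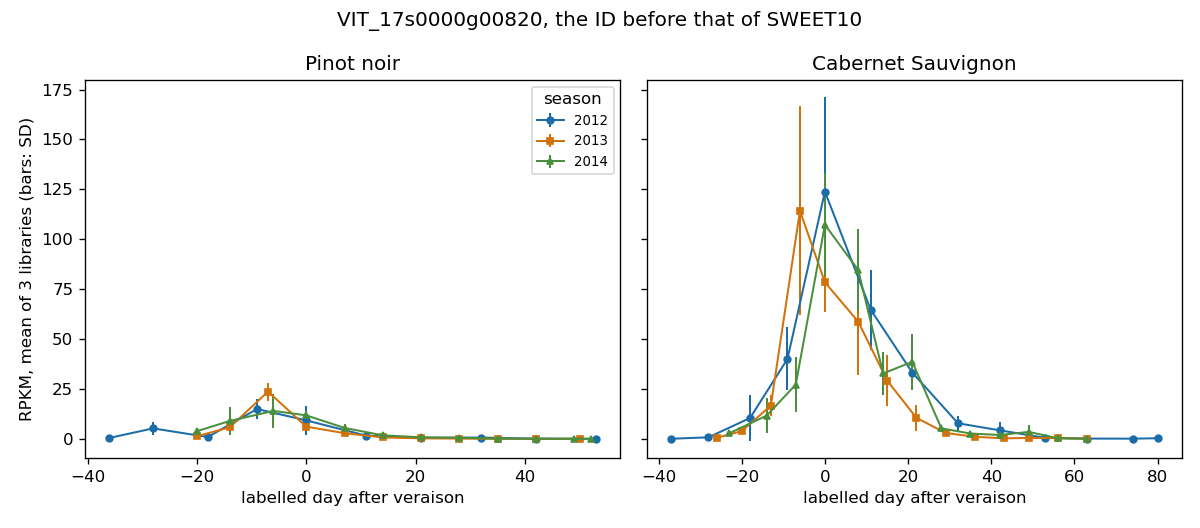
Mean RPKM of 3 libraries with its SD for VIT_17s0000g00820, next to SWEET10 in the annotation, against the labelled day after veraison in Pinot noir (left) and Cabernet Sauvignon (right), by season. The highest mean is 23.6 RPKM in Pinot noir and 124 RPKM in Cabernet Sauvignon, and the levels are near 0 late in each season.

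The genes whose courses were most like those of each SWEET were different ones. Over the 73 group means of log2(RPKM + 1), SWEET10 and SWEET15 had a Pearson r of -0.108 with each other. SWEET10 was most like VIT_08s0040g00380 (r = 0.918, group means between 4.30 and 56.0 RPKM) and VIT_02s0025g03570 (r = 0.915, between 5.35 and 72.3 RPKM), and 4 genes reached 0.9. SWEET15 was most like VIT_08s0007g00180 (r = 0.971, between 4.22 and 49.4 RPKM) and VIT_12s0059g00590 (r = 0.969, between 711 and 16236 RPKM), and 131 genes reached 0.9. By r after centring within each cultivar-season, these genes ranked 5th and 6th for SWEET10 and 3rd and 2nd for SWEET15. The table pairs these IDs with no name.

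Of 17 sugar transporter and invertase IDs listed for comparison, 16 were tested. From the early to the ripe sampling 1 rose and 5 fell, beside 7.29% of all genes called higher and 21.4% lower, with a median log2 change of -0.34, against -0.25 over all genes tested. The one that rose was HT5, a hexose transporter, at 16.5 RPKM when ripe and 0.391 RPKM when early (log2 change 2.61, adjusted p = 2.02e-41). HT6, another hexose transporter, rose before the sugar rise, with 329 RPKM at the preceding sampling and 103 RPKM at the early one (1.63, adjusted p = 7.60e-41). HT6 averaged 132 RPKM when ripe, against 456 RPKM at the sugar rise. CWINV, a cell wall invertase, which splits sucrose outside the cell, fell before the sugar rise, with 3.52 RPKM at the preceding and 11.0 RPKM at the early sampling (-1.34, adjusted p = 4.39e-32).

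At the sugar rise 0 of the 16 rose and 3 fell, beside 1.00% of all genes called higher and 3.13% lower. The count of 0 higher is near the share of all genes, and that of 3 lower is above it. Between the early and the preceding sampling 1 of the 16 rose and 4 fell, beside 1.83% of all genes called higher and 2.78% lower. SUC11, a sucrose transporter, averaged 64.9 RPKM at the sugar rise and 60.0 RPKM at the preceding sampling (log2 change 0.11). From the ripe to the last sampling HT5 rose (26.0 RPKM at the last and 16.5 RPKM at the ripe sampling, 1.09). HT2, also a hexose transporter, fell to 7.51 RPKM at the last sampling, against 16.8 RPKM when ripe (-1.42), and HT6 fell to 61.3 RPKM, against 132 RPKM when ripe (-1.15). SWEET10 fell and SWEET15 was not called at that same step. The remaining IDs of the list are given here as counts.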

How the data were processed

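The deposited values are RPKM per gene ID and library, which the authors made from non-directional TruSeq libraries. TopHat2 2.0.6 and Cufflinks 2.0.2 are named for this in the submitters' processing notes, and the genome build is not given in the sources used here. Of 29971 genes, 27320 were above 0 in some library, and 21425 with at least 1 RPKM in at least 3 libraries were tested. Groups were taken from the labels. Depth is unknown: low values showed no steps of whole reads, so no count test was run. Of 3142 low genes, those above 0 in both a library and the first library were compared by the ratio of their values. At most 7.61% of these shared a bin of 0.02 log2.

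A model with 1 mean for each of the 73 groups (146 residual degrees of freedom) was fitted to log2(RPKM + 1) with limma 3.58.1 in R 4.3.3, with trended and robust variances, and p-values were adjusted by Benjamini-Hochberg over all genes tested. A fold change on this scale understates the change of low genes. Nothing in the labels says that replicates came from separate vines, so p-values measure the spread between these samples. Replicate numbers did not pair the samples: 90 correlations of their deviations ran between -0.324 and 0.245. Timing was computed in Python 3.11.15. The genes, lists and tests were chosen with earlier results of these data known. The most alike genes were the 2 with the highest r for each SWEET, and the neighbours those within 5 ID steps. Alternatives covered pseudocount, filter, scaling, replicate block, left-out replicates, seasons and libraries, positions by day, and cultivar-seasons as replicates.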

Additional observations from a re-analysis of the deposited data

Results flagged for a closer look

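The change from the early to the ripe sampling differed between the cultivars in both genes by the test of that difference. For SWEET10 the difference, Pinot noir minus Cabernet Sauvignon, was -2.69 (SE 0.34, limma adjusted p = 1.02e-11). The changes behind it were 0.31, -2.78 and -4.38 in Pinot noir and -0.999, 1.27 and 0.97 in Cabernet Sauvignon, for 2012, 2013 and 2014, so that 2012 went the other way. The labelled sugar of the ripe samplings was 20.6, 22.0 and 23.9 g/100 ml in Pinot noir and 23.3, 21.1 and 21.2 g/100 ml in Cabernet Sauvignon, and its part in the difference was not tested. With cultivar-seasons as replicates the adjusted p was 0.253 for SWEET10 and 0.549 for SWEET15, so that neither call was kept.

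For SWEET15 the difference was -1.94 (SE 0.39, limma adjusted p = 6.71e-06). The changes were 8.18, 5.39 and 3.63 in Pinot noir and 10.35, 7.86 and 4.81 in Cabernet Sauvignon, lower in Pinot noir in 3 of 3 seasons. At the early sampling SWEET15 averaged 38.8 RPKM in Pinot noir and 20.8 RPKM in Cabernet Sauvignon, and at the ripe sampling 1132 RPKM in Pinot noir and 1601 RPKM in Cabernet Sauvignon. The labelled sugar of the early samplings was 1.17 to 1.34 g/100 ml in Pinot noir and 0.450 to 0.563 g/100 ml in Cabernet Sauvignon.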

How the results depend on the processing

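Of 24 results, 8 kept direction and call under all alternatives run, and of 432 alternatives 403 did, while 8 lost a call, 12 gained one and 9 reversed. The cause was not tested, except that cultivar-seasons as replicates leave fewer samples. Before the sugar rise SWEET10 was 1.25 without 2014. After it SWEET10 was -0.11 without 2013 and -0.094 without Cabernet Sauvignon of 2013, and SWEET15 was 1.28 by labelled day. Over ripening SWEET10 was -1.23 without 2012, -1.03 without 2013, -1.15 by labelled day, -1.38 without Cabernet Sauvignon of 2013, and -1.08 to -0.84 without single replicates. It was -0.55 without 2014 and -0.52 with TMM scale factors, still not called. At the sugar rise SWEET10 ran between 0.089 without 2012 and 0.62 without 2013, never called. At the end of the season SWEET15 was 0.028 by labelled day, and the SWEET10 call (-2.25) was lost with cultivar-seasons as replicates. So were those on cultivar for SWEET15 at the early sampling (1.44), SWEET10 when ripe (-2.83) and both ripening changes (-2.69 and -1.94). At the early sampling the cultivar difference was 0.29 for SWEET10 without 2012 and 0.93 for SWEET15 with a pseudocount of 5. At the sugar rise that of SWEET15 was 0.98 without 2012 and 0.97 to 1.23 without single replicates. The cultivar difference of the sugar-rise change was -1.25 for SWEET10 and -1.22 for SWEET15 without 2013, -1.38 and -1.27 without Cabernet Sauvignon of 2013, and 0.12 for SWEET15 without 2012. The season difference was -0.13 for SWEET10 without 2013. For SWEET15 it was 0.58 without 2012, -1.58 by labelled day and -0.76 to 0.32 without single replicates; without 2014 it has no value. Both alternatives on Cabernet Sauvignon of 2013 were chosen after seeing the data. With the replicate block no call of either SWEET changed. The counts over all genes were 885 with it and 885 without it at the sugar rise, and 6152 and 6153 over ripening, and moved by at most 2 genes in the other comparisons. Depth is unknown and limits the low SWEET15 values of green berries.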

Other observations

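In some groups 1 library stood apart from the others in a SWEET, with or without a difference in labelled sugar. On day 28 of 2014 in Pinot noir the library at 22.9 RPKM of SWEET10 had 22.5 g/100 ml, while those at 204 and 248 RPKM had 17.8 and 15.4 g/100 ml. On day 32 of 2012 in Pinot noir the library at 240.1 RPKM of SWEET10 had 18.3 g/100 ml, while those at 84.6 and 79.9 RPKM had 22.0 and 21.6 g/100 ml. On day 42 of 2012 in Cabernet Sauvignon the library at 476 RPKM of SWEET15 had 16.5 g/100 ml, while those at 1595 and 1432 RPKM had 22.2 and 19.8 g/100 ml. Sugar did not set the library apart in 2 green groups. On day -26 of 2013 in Cabernet Sauvignon the SWEET15 libraries were at 57.2, 2.05 and 4.01 RPKM with 0.48, 0.48 and 0.49 g/100 ml. On day -20 of 2013 in Pinot noir they were at 33.7, 129 and 19.0 RPKM with 0.65, 0.80 and 0.93 g/100 ml. These groups were chosen after their values were seen.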
